A study of Mus musculus with 37 samples.

Results

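Obox1, Obox5 and Obox6 belong to the oocyte-specific homeobox (Obox) family of the mouse, and their RNA was followed here from the oocyte and zygote into control embryos and embryos made by nuclear transfer (NT). The members were chosen by name: every probe whose gene symbol in the array annotation was one of the 3 genes. Array version 1 held 3 such probes among 24613, one for each gene. Array version 2 held 2 among 25697, for Obox1 and Obox6. The probe annotated as Obox5 on version 1 was also present on version 2, where the annotation gave the same probe the name Obox2. Its values on version 2 are therefore given as those of the Obox5/Obox2 probe. On version 1, Obox5 below is the annotated name of this probe and not a reading of that gene alone. The pair of genes is treated as not told apart by it on either version.

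Obox genes encode homeodomain proteins, which bind DNA and act as transcription factors. In the mouse, some members of the family are stored as RNA in the growing oocyte and are cleared after fertilisation, and others are transcribed from the embryo's own genome when it is first switched on at the 2-cell stage. Work on mouse embryos has tied the family to that first wave of transcription, with maternal and zygotic members able to stand in for one another. The family's name does not describe Obox6 in these samples, where it was detected in 2-cell and 4-cell embryos and not in MII oocytes. It is also known as a factor that raises the yield of pluripotent cells when mouse fibroblasts are reprogrammed in culture.

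The family lies on chromosome 7 in the mouse, where the RefSeq annotation of GRCm38.p6 lists 6 protein-coding Obox genes and 45 Obox pseudogenes. No other gene lies between Obox5 and Obox6, and 7 lie between Obox1 and Obox5. RefSeq promoter windows, from 250 bases before to 50 bases after the gene start, were available for 2 of the 3 members. They are printed because the Obox1 and Obox5 probes moved together in most comparisons below. Whether the likeness of the windows has a part in that was not tested. No probe or transcript sequences were compared, so the windows do not show what a probe can tell apart. Capitals mark the letters TATAAG.
Obox1, chr7:15547007-15547306, plus strand: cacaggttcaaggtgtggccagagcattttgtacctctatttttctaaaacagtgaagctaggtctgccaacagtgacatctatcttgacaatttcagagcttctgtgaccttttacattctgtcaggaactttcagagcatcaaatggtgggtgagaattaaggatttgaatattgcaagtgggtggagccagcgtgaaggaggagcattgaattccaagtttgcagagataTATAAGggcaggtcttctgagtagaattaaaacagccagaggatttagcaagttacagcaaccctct
Obox5, chr7:15750120-15750419, plus strand: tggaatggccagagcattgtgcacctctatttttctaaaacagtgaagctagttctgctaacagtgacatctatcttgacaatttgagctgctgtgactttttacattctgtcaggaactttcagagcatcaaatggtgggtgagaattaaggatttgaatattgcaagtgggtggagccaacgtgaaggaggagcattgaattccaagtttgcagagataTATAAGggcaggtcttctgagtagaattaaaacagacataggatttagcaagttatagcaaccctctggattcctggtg
These windows had 95.8% identical bases over 285 aligned columns, with a longest shared run of 82 bases. Between Obox1 and Obox2 the windows shared 203 bases without a difference. Such likeness was not limited to these pairs. Obox5 and Obox7 had 97.1% identical bases with a run of 134, and Obox1 and Obox7 94.3%. The Obox3 and Obox7 windows also held TATAAG, and the Obox2 window did not. TATAAG stood 17 bases before the gene start in Obox1 and 29 before it in Obox5, searched on both strands, and 7.43% of 32851 RefSeq promoter windows of this length hold it. The letters TAATTG and TAATTA, searched in the same way for binding by the oocyte homeobox factor NOBOX, occurred in neither window, and 8% and 5.29% of all windows hold them. CANNTG, the E-box letters, occurred 2 times in each window and is held by 72.3% of all windows. A match or its absence describes the letters of these windows only.

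The data come from 37 bead arrays with a single dye, spread over 8 slides: 22 were of version 1 and 15 of version 2. Version 1 held tail tip fibroblasts of agouti 129xB6 F1 mice, the interphase nuclear donors (3 samples), zygotes in interphase (3 samples, one labelled as about 25 h after hCG) and zygotes in M phase (3 samples). It also held 2-cell control embryos, embryos kept at 1 cell until 2-cell timing by blocking cleavage, and fibroblast NT embryos made in zygotes at prometaphase or at anaphase of the first mitosis, with 2 samples each. Where the labels give a time, those 4 groups were taken 22 to 24 h after mitosis or transfer. Version 2 held MII oocytes (2 samples), 4-cell controls 14 h after release from a mitotic block (2 samples), blastomere NT embryos 14 h after transfer (3 arrays), oocyte NT embryos made with interphase fibroblasts (2 samples, 2 d) and 1 parthenogenetic sample (2 d). Both versions held 1 sample each of embryos left for 1 d without any genome and of interphase NT with embryonic stem (ES) cells as donors. The 2-cell and cleavage-inhibited arrays of version 2 (2 and 1) were second hybridizations of RNA already run on version 1, so they add no new embryos. All embryos were grown in KSOM medium. How many embryos each array pooled, and the strain of the recipient embryos, is not given in the sources used here.

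Probes were detected (detection p below 0.05) at rates of 18.8 to 45.7% per array on version 1 and 33.8 to 44% on version 2. The lowest rates were those of the genome-less sample (18.8%) and the ES NT sample (20.8%) of version 1. The 75th percentile of their intensity was 24 and 23.5, against 35.1 to 152 on the other arrays of that version, so a dim probe on these arrays takes a higher normalized level than on the others. Interphase zygote 1 correlated with the others of its group at 0.925 and 0.921, against 0.974 between those. The anaphase NT samples correlated at 0.853. Blastomere NT arrays 1 and 3 differed nearly as little as repeat hybridizations of one RNA did (SD of the log2 difference 0.143, against 0.115 to 0.13) and were counted as 1 sample. Labelled cell types carried their markers: 11 of 11 fibroblast markers were detected in every fibroblast sample, and the oocyte growth factor genes Gdf9 and Bmp15 in every oocyte and zygote sample. Gdf9 was also detected on 3 of 3 fibroblast arrays, at a mean level of 5.36 against 12.92 in interphase zygotes. Bmp15 was detected on 0 of 3 fibroblast arrays. Fibroblasts also carried 8 of 8 macrophage markers. Levels below are log2 normalized intensity, differences are log2 ± standard error, and p-values are limma's, adjusted over all genes of the version and two-sided. A change was called at an adjusted p below 0.05. In bulk samples, fewer cells of a type and less RNA per cell cannot be told apart. The versions were normalized apart, so levels are compared only within one.

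Obox1 was high in oocytes and zygotes, lower in 2-cell embryos and not detected in 4-cell embryos, the course of a maternal RNA. Its levels were 9.92, 10.02 and 11.19 in interphase zygotes, with intensities of 1110, 1050 and 3140. In M-phase zygotes they were 11.32, 11.64 and 11.87. Every zygote stood far above the donor fibroblasts, whose levels of 4.26, 4.28 and 4.29 were not detected on any of 3 arrays. Against interphase zygotes, Obox1 was at least 59.8-fold lower in fibroblasts (adjusted p = 1.05e-09) in a comparison in which 59.5% of 8158 genes were called. Within slides the difference was -6.92 on slide 1 and -5.69 on slide 4.

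The Obox5 probe differed more between the zygote stages than Obox1 did. Levels were 5.57, 5.57 and 7.08 in interphase zygotes and 8.55, 9.09 and 9.56 in M-phase zygotes, so the groups did not overlap. From interphase to M phase it rose by 2.99 ± 0.52 (n = 3 and 3, adjusted p = 0.00824), the highest rank by size among all 8158 genes tested, while 2.72% of genes were called. Obox1 was 1.23 ± 0.31 higher in M phase and missed the threshold (adjusted p = 0.0571; 95% interval 0.55 to 1.91). Without interphase zygote 1, which had the highest Obox1 and Obox5 levels of its group, the differences were 1.64 (adjusted p = 0.00181) for Obox1 and 3.5 (adjusted p = 0.00141) for Obox5. Within slide 4, the one slide with both groups, they were 1.9 and 3.52. With slide as a block the Obox5 call was lost (3.26, adjusted p = 0.152), and it was lost with only both groups in the fit (adjusted p = 0.0887) and without M-phase zygote 25 (adjusted p = 0.0577). In fibroblasts the probe was undetected at 4.27 to 4.32, at least 3.02-fold below interphase zygotes (adjusted p = 0.00839). That difference was -2.81 within slide 1 and -1.25 within slide 4, and it missed the threshold with an offset of 50 (adjusted p = 0.0568).

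Obox6 was undetected in interphase zygotes and barely detected in M-phase zygotes. Its interphase zygote levels of 4.42, 4.5 and 4.53 were detected on 0 of 3 arrays, as were the fibroblast levels of 4.3, 4.33 and 4.41. In M-phase zygotes it read 4.61, 4.69 and 4.73, detected on 3 of 3 arrays with detection p-values of 0.026 to 0.044. Their intensities of 32.1 to 40.1 overlapped the undetected interphase readings of 30.5 to 36.4, so no fold is given against this level. The M-phase and interphase values differed by 0.19 ± 0.21 (adjusted p = 0.906), and fibroblasts and interphase zygotes by -0.14 ± 0.21 (adjusted p = 0.611).

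**Figure D1:**
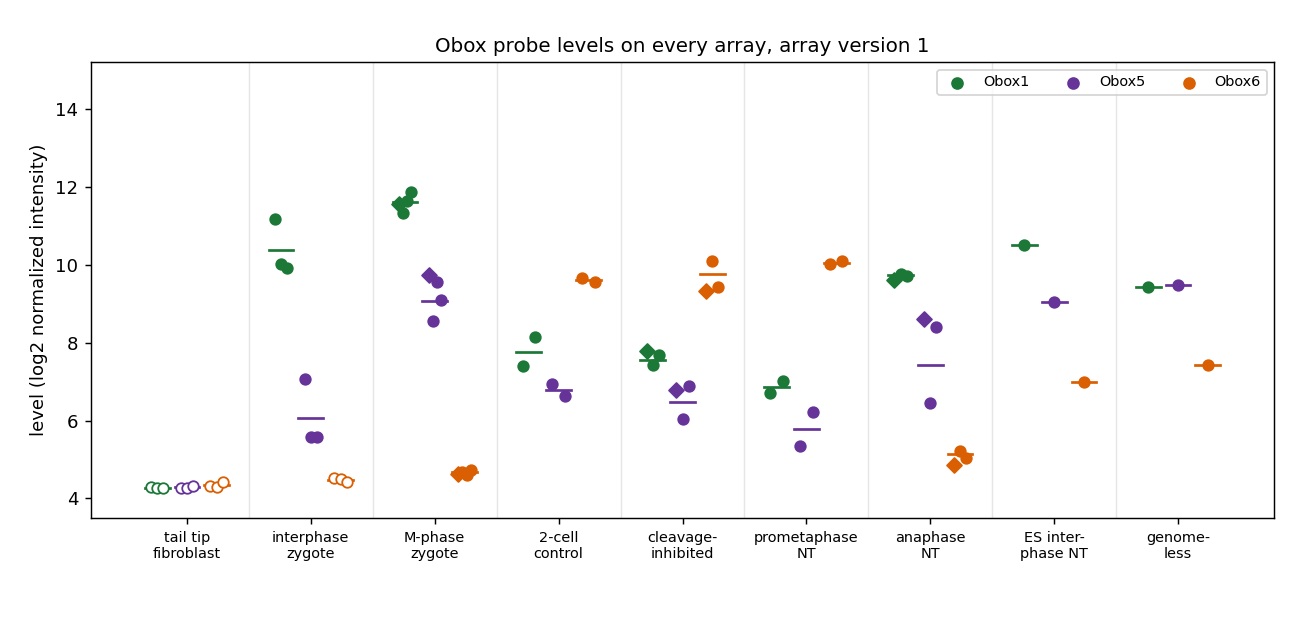
Levels of the Obox probes on every array of version 1 (y axis, log2 normalized intensity) by group (x axis), with bars for group means. Circles are samples, diamonds repeat hybridizations left out of the means, and open symbols arrays on which the probe was not detected. Obox6 is near 4.5 in zygotes and fibroblasts and between 9.34 and 10.11 in 2-cell, cleavage-inhibited and prometaphase NT embryos. The ES NT and genome-less arrays are dim, which lifts low values.

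Between M phase and the 2-cell stage the members changed places. Obox6 rose by 4.94 ± 0.23 (adjusted p = 1.05e-08), from the values above to 9.57 and 9.66 in the 2-cell controls. The deposited intensities there were 552 and 762. Obox1 fell by 3.85 ± 0.35 (adjusted p = 1.38e-06) to 7.39 and 8.14, a 14.4-fold difference. Obox5 fell by 2.28 ± 0.58 (adjusted p = 0.00539) to 6.64 and 6.93. No 2-cell value overlapped the M-phase values for any of the 3 probes. All 3 were called where 42.3% of all genes were. Within slide 3 the differences were 4.95, -3.67 and -2.35, with M-phase zygote 24 and the repeat hybridization of zygote 25 averaged. For Obox5 those arrays read 8.55 and 9.73. With slide as a block the Obox5 call was lost (-1.77, adjusted p = 0.129).

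Other maternal and zygotic genes were read from lists that were drawn up with earlier results of these data known. The 3 Obox probes were left out of every list count. Of 29 measured maternal oocyte transcripts, 24 fell and 1 rose from M phase to the 2-cell stage (median -2.81, against 0 over all genes). Among them were Tdrd12, a piRNA pathway gene (-6.23 ± 0.37, adjusted p = 4.42e-08), and Gja4, the connexin of the oocyte's gap junctions (-5.68 ± 0.44). Of 27 measured genes of zygotic genome activation, 20 rose and 1 fell (median 3.1), among them Pramel7 (6.72 ± 0.44, adjusted p = 1.01e-07) and Guca1a (7.15 ± 0.32). Of 40 measured homeobox genes, the 3 Obox members left out, 4 rose and 11 fell. Otx1, an orthodenticle homeobox gene, was the homeobox gene with the largest called fall (-4.63 ± 0.57, adjusted p = 1.93e-05). From interphase to M phase, 3 of the 29 maternal transcripts were called higher and 0 lower (median 0.11, against 0.01 over all genes).

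Embryos held at 1 cell had Obox levels that overlapped those of divided embryos. In cleavage-inhibited embryos Obox6 read 9.43 and 10.11, Obox1 7.43 and 7.69, and Obox5 6.04 and 6.9, and for each probe the values overlapped those of the 2-cell controls. The differences were 0.16 ± 0.26 (95% interval -0.4 to 0.71) for Obox6, -0.21 ± 0.39 (-1.04 to 0.62) for Obox1 and -0.32 ± 0.63 (-1.68 to 1.05) for Obox5, each with an adjusted p of 1 after rounding. None was called, in a comparison that called 0.233% of all genes. Within slide 3, where a cleavage-inhibited RNA had been hybridized again, they were -0.27, 0.03 and -0.01.

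Fibroblast nuclei placed in zygotes at prometaphase gave embryos with Obox6 near the 2-cell level. Obox6 read 10.03 and 10.09, with intensities of 1120 and 1200, both above the 2-cell values of 9.57 and 9.66 by 0.45 ± 0.26 (95% interval -0.11 to 1, adjusted p = 0.593). Obox1 read 6.72 and 7.02, both below the 2-cell values, and differed by -0.9 ± 0.39 (95% interval -1.73 to -0.07, adjusted p = 0.377). Obox5 read 5.34 and 6.22 and differed by -1 ± 0.63 (95% interval -2.37 to 0.36, adjusted p = 0.652). None of these 3 differences was called, in a comparison that called 2.15% of all genes, and all arrays were on slide 3. The intervals leave room for an Obox1 level up to 1.73 lower than in 2-cell controls.

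Against M-phase zygotes, the stage at which the nucleus was exchanged, all 3 members were called in prometaphase NT embryos, where 44.9% of genes were. Obox6 rose by 5.38 ± 0.23 (adjusted p = 6.02e-09). Obox1 fell by 4.74 ± 0.35 (26.8-fold, adjusted p = 2.02e-07) and Obox5 fell by 3.29 ± 0.58 (9.76-fold, adjusted p = 0.000342). Within slide 3, with the repeat hybridization of M-phase zygote 25 included, these were 5.4, -4.57 and -3.36. The maternal list moved with Obox1 and Obox5 (25 of 29 lower, 1 higher, median -3.39) and the zygotic list with Obox6 (20 of 27 higher, 1 lower, median 2.89). The fibroblast markers detected in prometaphase NT embryos numbered 5 to 7 of 11, against 3 in the 2-cell controls, and their part in the values was not tested. The donor cells themselves had no detectable signal for any of the 3 probes.

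Transfer at anaphase gave a different picture. Obox6 read 5.04 and 5.23 in anaphase NT embryos, with intensities of 35.2 and 32 and detection p-values of 0.013 and 0.04. Those intensities overlap the undetected interphase zygote readings, so differences are given on the log2 scale only. It was 4.47 ± 0.26 below the 2-cell controls (adjusted p = 8e-08) and 4.92 ± 0.26 below prometaphase NT embryos (adjusted p = 3.78e-08). Against M-phase zygotes the difference of 0.46 ± 0.23 was not called (95% interval -0.04 to 0.97, adjusted p = 0.132), so Obox6 was not distinguished from its level before transfer. Within slide 3, with the repeat hybridization of anaphase NT 19, these were -4.77, -5.21 and 0.19. The last also included the repeat hybridization of M-phase zygote 25. On slide 2, which held both anaphase NT samples of the fit, M-phase zygote 25 read 4.61, below both.

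Obox1 in anaphase NT embryos lay between the zygote and the 2-cell levels, at 9.72 and 9.76. It was 1.97 ± 0.39 above 2-cell controls (3.93-fold, adjusted p = 0.0012), 2.87 ± 0.39 above prometaphase NT embryos (7.31-fold, adjusted p = 6.52e-05) and 1.87 ± 0.35 below M-phase zygotes (3.66-fold lower, adjusted p = 0.000857). The 3 groups did not overlap with it. Within slide 3, with the same repeat hybridizations, the values were 1.85, 2.75 and -1.82, and within slide 2 the last was -1.9. The call against 2-cell controls was lost with slide as a block (1.66, adjusted p = 0.145) and with only both groups in the fit (adjusted p = 0.067).

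Obox5 split the anaphase NT samples, with 6.45 in sample 15 and 8.4 in sample 19. The repeat hybridization of sample 19 read 8.61. Sample 15 lay below both 2-cell values and sample 19 above both, so the mean difference of 0.64 ± 0.63 was not called (95% interval -0.73 to 2, adjusted p = 0.484). It was 1.62 without sample 15 and -0.34 without sample 19. Against prometaphase NT embryos the difference was 1.64 ± 0.63 (adjusted p = 0.053), 2.62 without sample 15 (adjusted p = 0.00555) and 0.67 without sample 19 (adjusted p = 0.435). Against M-phase zygotes Obox5 fell by 1.64 ± 0.58 (adjusted p = 0.0373). That call was lost without sample 15 (-0.67, adjusted p = 0.441), without M-phase zygote 25 (-1.39, adjusted p = 0.116) or 26 (-1.63, adjusted p = 0.0716), with slide as a block (-2.14, adjusted p = 0.0833) and with only both groups in the fit (adjusted p = 0.119). Within slides it was -2.14 on slide 2 and, with the repeat hybridizations of both groups, -0.53 on slide 3.

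Members called in anaphase NT were thus Obox1 and Obox6 against 2-cell controls, where 35.6% of genes were called, the same pair against prometaphase NT embryos (40.5%), and Obox1 and Obox5 against M-phase zygotes (39.6%). Against 2-cell controls, 20 of 29 maternal transcripts were higher and 2 lower (median 1.41), including the oocyte growth factor Bmp15 (3.96 ± 0.42, adjusted p = 1.02e-05) and the deadenylase subunit Cnot6l (3.55 ± 0.33). Of 27 zygotic genes, 17 were lower and 3 higher (median -2.31), including the alkaline phosphatase Alppl2 (-7.01 ± 0.3, adjusted p = 7.95e-09) and the pluripotency factor Dppa4 (-5.77 ± 1.04). Against M-phase zygotes 9 of 27 were higher and 6 lower, with Tdpoz1 (5.8 ± 0.27, adjusted p = 2.03e-08) and Guca1a (5.25 ± 0.32) among the higher. Of 40 homeobox genes, 10 were higher and 4 lower than in 2-cell controls, including Meis1 (2.93 ± 0.47, adjusted p = 0.000284) and Hoxa7 (2.82 ± 0.46). Anaphase NT arrays carried 7 to 9 of 11 fibroblast markers with a mean level of 7.13 to 7.95, against 5.34 to 5.49 in prometaphase NT and 4.44 to 4.59 in 2-cell controls, and 8 of these 11 were called higher than in 2-cell controls. The part of donor RNA in the Obox values was not tested. Fibroblasts had no detectable signal for the 3 probes.

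**Figure D2:**
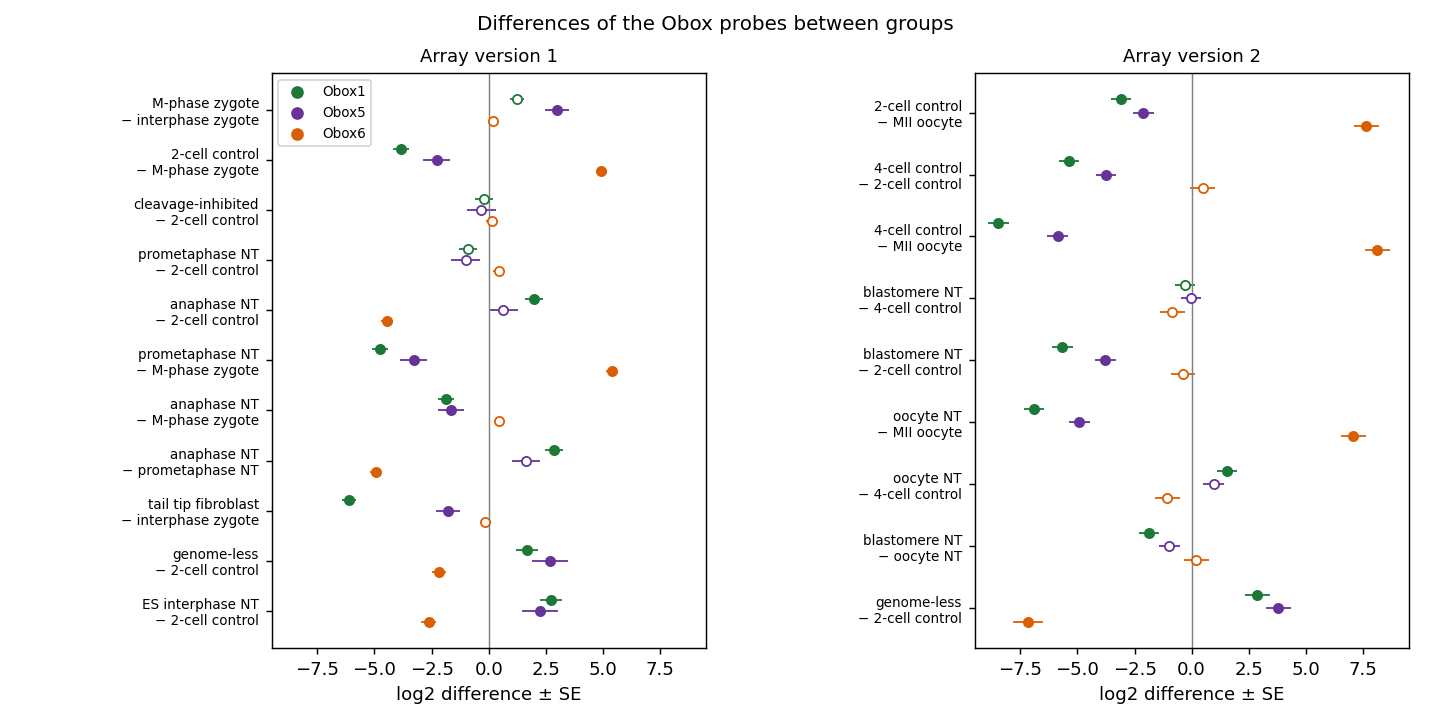
Fitted log2 differences ± standard error (x axis) of the Obox probes in every comparison of groups (y axis), for version 1 (left) and version 2 (right, where the Obox5 probe is named Obox2). Filled points passed an adjusted p below 0.05. Prometaphase NT and cleavage-inhibited embryos have open points against 2-cell controls, and anaphase NT embryos have Obox6 at -4.47 and Obox1 at 1.97.

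Embryos without a genome have no template for new transcription and serve as a reference for RNA stored in the egg. On version 2 the genome-less sample read 13.92 for Obox1, close to the MII oocyte values of 13.95 and 14.34, and 5.58 for Obox6, not detected. At 12.66, the Obox5/Obox2 probe lay above the oocyte values of 10.88 and 11.1. The deposited Obox1 intensities stood further apart, at 10500 in the genome-less sample (slide 7) against 22900 and 21700 in MII oocytes (slide 6). Genome-less and MII oocyte samples were not tested against each other. Against the 2-cell controls, at 10.64 and 11.45 for Obox1, the genome-less sample was 2.87 ± 0.55 higher (adjusted p = 0.00132). The Obox5/Obox2 probe was 3.79 ± 0.55 higher (adjusted p = 0.000216) than at 8.72 and 9.03. Obox6, at 12.69 and 12.79 in the 2-cell controls, was at least 85.1-fold lower (adjusted p = 1.26e-05). All 3 probes were called where 51.5% of genes were, with 1 genome-less sample whose spread is taken from the other groups. Genome-less and 2-cell arrays lay on different slides, so slide and group cannot be told apart here.

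The version 1 genome-less sample, a dim array, gave the same directions with smaller differences: 1.67 ± 0.47 (adjusted p = 0.00816) for Obox1, 2.69 ± 0.78 (adjusted p = 0.00924) for Obox5 and -2.17 ± 0.32 (adjusted p = 5.05e-05) for Obox6, where 52.6% of genes were called. Its Obox6 level of 7.44 was detected at an intensity of 30.2, just below the undetected interphase zygote readings of 30.5 to 36.4. Under scaling to the 75th percentile, Obox1 turned to -0.7 (adjusted p = 0.312) and Obox5 fell short of the threshold at 0.4 (adjusted p = 0.673). Slide as a block ended all 3 calls (1.1, 0.82 and -1.41; adjusted p = 0.423, 0.793 and 0.118).

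Embryos made with ES cell nuclei in interphase zygotes had, like the genome-less samples, higher Obox1 and Obox5 and lower Obox6 levels than 2-cell controls. On version 2 the ES NT sample read 13.12 for Obox1, 11.58 for the Obox5/Obox2 probe and 5.68 for Obox6, again not detected. On version 1 it read 10.51, 9.04 and 6.98, and Obox6 was detected there at an intensity of 27.5. Against 2-cell controls of version 1 these were 2.74 ± 0.47 (adjusted p = 0.000256), 2.25 ± 0.78 (adjusted p = 0.0267) and -2.63 ± 0.32 (adjusted p = 1.17e-05), and 48.5% of genes were called. With scaling to the 75th percentile the Obox1 and Obox5 differences were 0.84 and 0.26, neither called (adjusted p = 0.229 and 0.792), and with slide as a block none of the 3 was called (2.17, 0.39 and -1.87; adjusted p = 0.118, 0.939 and 0.0601). The Obox5 call was also lost without 2-cell control 22 (2.4, adjusted p = 0.0517) or 23 (2.11, adjusted p = 0.0854).

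From the oocyte to the 4-cell embryo, version 2 showed the same exchange over a longer span. MII oocytes read 13.95 and 14.34 for Obox1, with intensities of 21700 and 22900, and 4.87 and 5.3 for Obox6, detected on 0 of 2 arrays. In 2-cell controls Obox1 was 3.1 ± 0.45 lower (8.55-fold, adjusted p = 0.000181) and the Obox5/Obox2 probe 2.11 ± 0.45 lower (4.33-fold, adjusted p = 0.00212). Obox6 was at least 74.8-fold higher (adjusted p = 1.35e-06). All 3 were called beside 53.9% of genes. The 2-cell arrays lay on slide 8 and the oocyte arrays on slide 6, so slide and stage cannot be told apart here. Dppa4 (10.45 ± 0.25, adjusted p = 1.73e-09) led the 19 of 28 zygotic genes that were higher, against 1 lower, and 20 of 27 maternal transcripts were lower and 2 higher.

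The maternal probes then went below detection while Obox6 stayed. Obox1 read 5.43 and 5.93 in 4-cell controls and the Obox5/Obox2 probe 5.01 and 5.24, none detected. Against 2-cell controls they were at least 32.1-fold (adjusted p = 0.000156) and at least 7.11-fold lower (adjusted p = 0.000718), and Obox1 had the third largest absolute difference of 7181 genes, 19.1% of which were called. No slide held both 2-cell and 4-cell controls, so slide and stage cannot be told apart between these groups. Obox6 read 12.99 and 13.46, with intensities of 12300 and 15000, and differed from 2-cell controls by 0.48 ± 0.54 (95% interval -0.71 to 1.68, adjusted p = 0.589). Against MII oocytes all 3 were called (53.3% of genes): Obox1 at least 274-fold lower (adjusted p = 2.87e-07), the Obox5/Obox2 probe at least 30.8-fold lower (adjusted p = 1.91e-06) and Obox6 at least 105-fold higher (adjusted p = 8.46e-07). Within slide 6 these were -8.21, -5.74 and 8.37. Other maternal genes fell too between 2-cell and 4-cell controls (15 of 27 lower, 1 higher), whereas the zygotic list did not move one way (4 of 28 higher, 4 lower). The pluripotency homeobox gene Nanog (3.46 ± 0.71, adjusted p = 0.00818) and the trophectoderm homeobox gene Cdx2 (4.19 ± 0.51, adjusted p = 0.000808) rose.

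**Figure D3:**
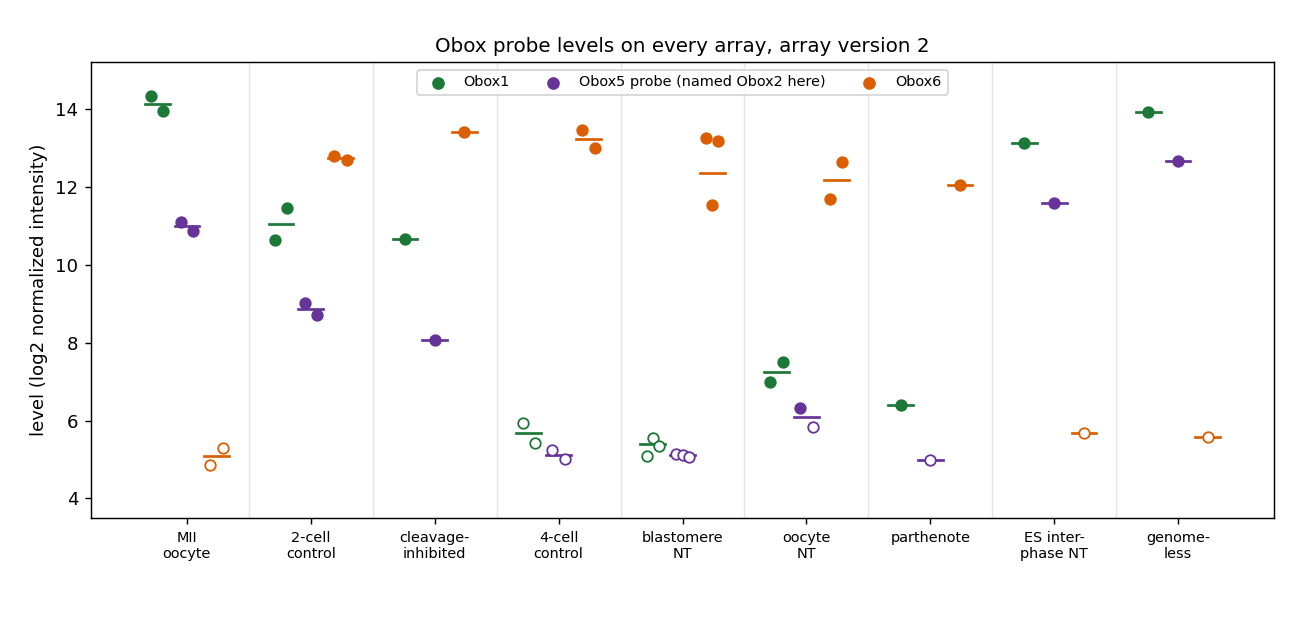
Levels of the Obox probes on every array of version 2 (y axis, log2 normalized intensity) by group (x axis), with bars for group means. Open symbols are arrays on which the probe was not detected, and the blastomere NT bar averages arrays 1 and 3 first. Obox1 is not detected in 4-cell controls and blastomere NT embryos, and Obox6 is not detected in MII oocytes, ES NT and genome-less embryos.

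Blastomere NT embryos, in which the genome of a blastomere was exchanged at mitosis with a donor that the labels do not name, had Obox values near those of the 4-cell controls. Obox1 read 5.1, 5.55 and 5.35 on arrays 1, 2 and 3 and the Obox5/Obox2 probe 5.13, 5.12 and 5.06, with none detected. Obox6 read 13.27, 11.53 and 13.17. Array 2 lay below both 4-cell controls, which read 12.99 and 13.46, and the near-identical arrays 1 and 3 lay between them. The Obox6 difference from 4-cell controls was -0.85 ± 0.54 (n = 2 and 2, 95% interval -2.04 to 0.34, adjusted p = 0.546). Without array 2 it was -0.01, and without arrays 1 and 3, counted as 1 sample, it was -1.7. Obox1 differed by -0.29 ± 0.45 and the Obox5/Obox2 probe by -0.02 ± 0.45, both with undetected values on each side. No member was called, in a comparison that called 2.81% of genes, and within slide 7 the differences were -0.62 for Obox6, -0.04 for Obox1 and 0.1 for the Obox5/Obox2 probe.

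Against 2-cell controls, blastomere NT embryos had Obox1 at least 36.5-fold lower (adjusted p = 8.49e-05) and the Obox5/Obox2 probe at least 8.08-fold lower (adjusted p = 0.000557), with Obox6 not called (-0.37 ± 0.54, 95% interval -1.56 to 0.82, adjusted p = 0.67). This comparison called 22.3% of genes, and 17 of 27 maternal transcripts were lower and 1 higher. No slide held both groups. Within the zygotic list 4 of 28 genes were lower than in 4-cell controls and none higher, including Cdx2 (-3.64 ± 0.51, adjusted p = 0.00516) and Tdpoz1 (-3.81 ± 0.59), so some zygotic genes were lower where the Obox6 difference was not called. Macrophage markers were present on 5 to 6 of 6 probes in blastomere NT embryos, with a mean level of 8.11 to 8.99 against 5.35 to 5.51 in 4-cell controls, and 4 of 6 were called higher. Fibroblast markers were detected on 5 to 6 of 7 probes (mean level 6.42 to 8.14), against 2 to 4 in 4-cell controls (6.1 to 6.15). None of these 7 was called higher and 1 was called lower than in 4-cell controls, and 3 were called higher than in 2-cell controls. The part of either marker list in the Obox values was not tested.

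Transfer into MII oocytes also gave embryos with high Obox6 and reduced maternal probes. Oocyte NT embryos read 11.7 and 12.63 for Obox6, at least 50.3-fold above MII oocytes (adjusted p = 2.4e-06). Obox1, at 6.99 and 7.5, was 120-fold lower than in MII oocytes (-6.9 ± 0.45, adjusted p = 9.99e-07). At 6.33 and 5.83, the Obox5/Obox2 probe was 30-fold lower (-4.91 ± 0.45, adjusted p = 7.76e-06) and was detected on 1 of 2 arrays. All 3 were called beside 52.4% of genes, on one slide (slide 6). Of the maternal list 24 of 27 genes were lower and none higher, and of the zygotic list 18 of 28 were higher and 2 lower.

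Obox1 did not go as low in oocyte NT embryos as in 4-cell controls. It was detected on both oocyte NT arrays and on neither 4-cell array, at least 2.3-fold higher (1.56 ± 0.45, adjusted p = 0.04996), just inside the threshold, with 11% of genes called. That call was lost without any one of the 4 samples (1.31 to 1.82, adjusted p = 0.14 to 0.3), with slide as a block (1.31, adjusted p = 0.317) and under 4 further settings given in the closing section. The Obox5/Obox2 probe (0.96 ± 0.45, adjusted p = 0.204) and Obox6 (-1.06 ± 0.54, 95% interval -2.25 to 0.13, adjusted p = 0.247) were not called, although both oocyte NT values of Obox6 lay below both 4-cell values. Within slide 6 the 3 differences were 1.31, 0.84 and -1.29. Oocyte NT embryos were taken 2 d after transfer and 4-cell controls 14 h after a block, so their ages are not matched. The parthenogenetic sample, also 2 d old and on slide 6, read 6.4 for Obox1 (detected), 4.99 for the Obox5/Obox2 probe (not detected) and 12.04 for Obox6. Of 27 maternal transcripts 13 were higher in oocyte NT embryos than in 4-cell controls and 1 lower, including Oosp1, an oocyte-secreted protein gene (4.14 ± 0.24, adjusted p = 2.54e-05), and Bmp15 (3.93 ± 0.49). Nanog (-4.3 ± 0.71, adjusted p = 0.00662) and Cdx2 (-4.43 ± 0.51, adjusted p = 0.0018) were lower.

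Set against each other, blastomere NT embryos had Obox1 at least 2.61-fold below oocyte NT embryos (-1.86 ± 0.45, adjusted p = 0.03). Neither the Obox5/Obox2 probe (-0.97 ± 0.45, adjusted p = 0.209) nor Obox6 (0.21 ± 0.54, 95% interval -0.99 to 1.4, adjusted p = 0.886) was called, and 9.25% of genes were. All 6 macrophage markers were called higher in blastomere NT than in oocyte NT embryos, and their part in the Obox1 difference was not tested. The Obox1 call was lost without any one sample of either group and with slide as a block (-1.35, adjusted p = 0.825). The groups lay on slides 6 and 7 and were taken at 2 d and 14 h, so transfer route, slide and age cannot be told apart.

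**Figure D4:**
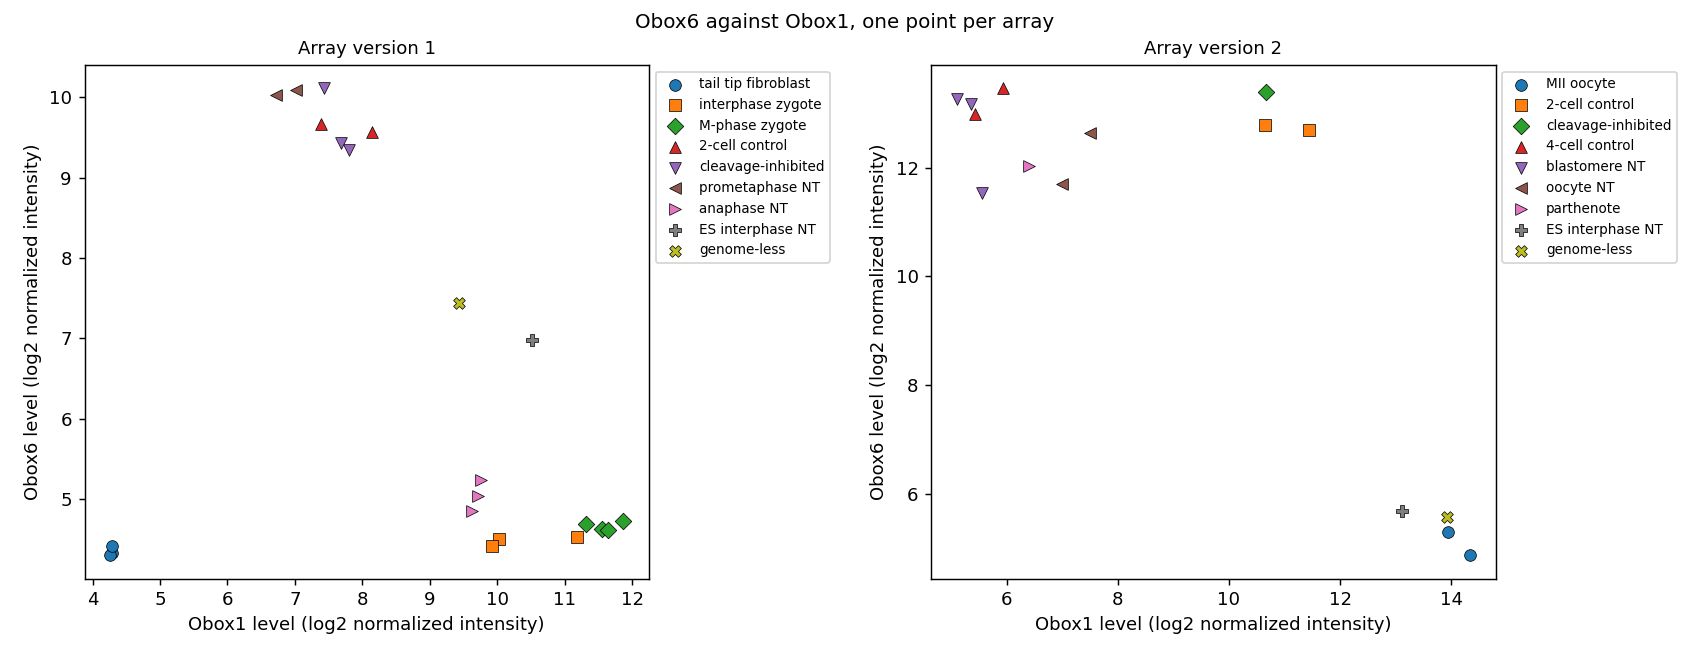
Obox6 level (y axis) against Obox1 level (x axis), both in log2 normalized intensity, with 1 point per array for version 1 (left) and version 2 (right). Zygotes, MII oocytes and anaphase NT embryos sit at high Obox1 and low Obox6. Prometaphase NT embryos sit with the 2-cell controls, and blastomere and oocyte NT embryos with the 4-cell controls and the parthenote. On version 1 the dim ES NT and genome-less arrays lie between, and on version 2 they lie beside the oocytes.

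Within version 1 the order of Obox1 group means, from high to low, was M-phase zygotes 11.61 ± 0.28 (SD, n = 3), interphase zygotes 10.38 ± 0.71 (n = 3), anaphase NT 9.74 ± 0.03 (n = 2), 2-cell controls 7.77 ± 0.53 (n = 2), cleavage-inhibited embryos 7.56 ± 0.18 (n = 2), prometaphase NT 6.87 ± 0.21 (n = 2) and fibroblasts 4.28 ± 0.02 (n = 3), with ES NT at 10.51 and genome-less at 9.44. Neighbours tested and not called were both zygote stages, and 2-cell against cleavage-inhibited embryos. Cleavage-inhibited against prometaphase NT embryos and interphase zygotes against anaphase NT embryos were not tested. For Obox6 the order was prometaphase NT 10.06 ± 0.04, cleavage-inhibited 9.77 ± 0.48, 2-cell 9.61 ± 0.07, anaphase NT 5.14 ± 0.13, M-phase zygotes 4.68 ± 0.06, interphase zygotes 4.48 ± 0.06 and fibroblasts 4.35 ± 0.06. The values fell into 2 separate ranges, with no sample between 5.23 and 9.43 other than the dim genome-less and ES NT arrays. On version 2 Obox6 ran from 11.53 to 13.46 in 2-cell, 4-cell, cleavage-inhibited, NT (blastomere and oocyte) and parthenogenetic samples and from 4.87 to 5.68 in oocytes, ES NT and genome-less samples.

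**Figure D5:**
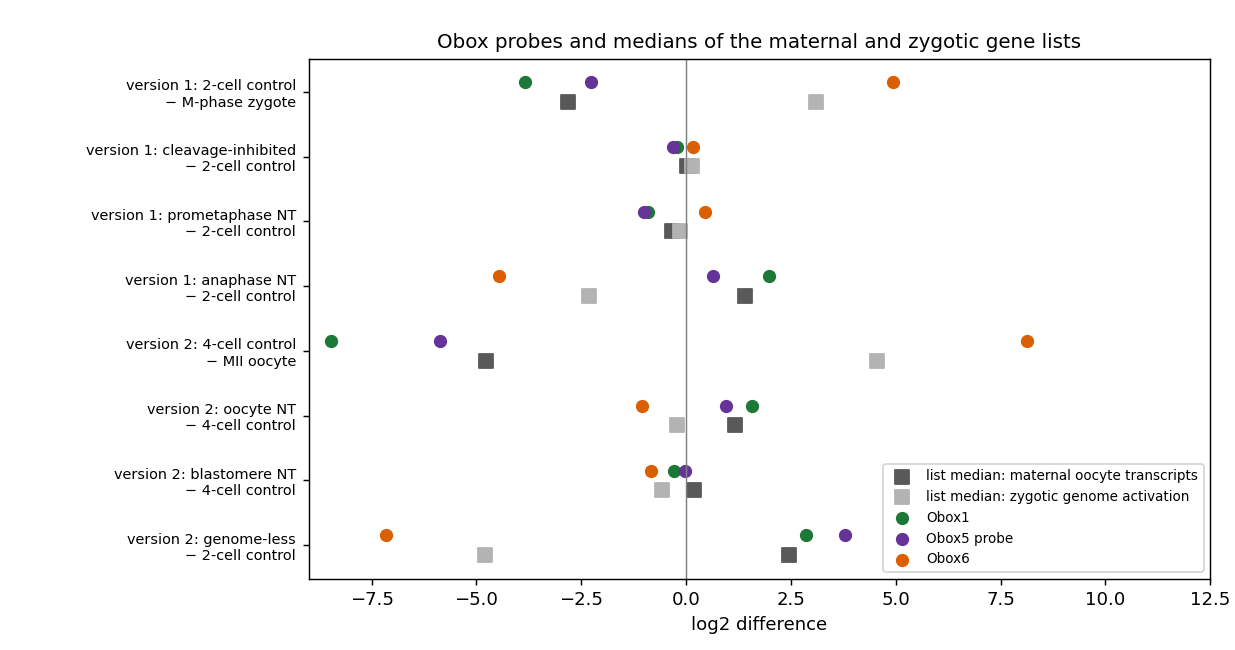
Log2 differences (x axis) of the Obox probes (circles) and median differences of the maternal and zygotic gene lists (squares) in 8 comparisons (y axis). Obox1 and Obox6 lie on the side of the maternal and the zygotic median in the comparisons with M-phase zygotes and MII oocytes, and in anaphase NT and genome-less embryos. Where Obox differences are not called (cleavage-inhibited, prometaphase and blastomere NT), list medians lie between -0.57 and 0.18.

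The genes whose levels ran most like a member's over the samples of a version were found by Pearson correlation, as a description. For Obox1 on version 1 these were Nsmce2, a SUMO ligase of the SMC5/6 complex, Ooep, a subunit of the oocyte's subcortical complex, Btg4, an adaptor of maternal RNA decay, Bcl2l10, and the oocyte linker histone H1f8 (r = 0.97 to 0.978, 19 samples). Btg4 ran from 10.87 in M-phase zygotes to 8.57 in 2-cell controls and 7.51 in prometaphase NT embryos, with 10.38 in anaphase NT embryos. On version 2 the 5 were Fbxw4, Tor1a, Rnf185, Btg4 and Xlr4c (r = 0.975 to 0.981, 14 samples), so Btg4 was named on both. For Obox6 they were Slc5a4b, Ntmt1, Rab20, Stmn3 and Rab39 on version 1 (r = 0.975 to 0.984) and Ola1, Rnf11, Folr1, Cyp2s1 and Mrm3 on version 2 (r = 0.991 to 0.994). Folr1, a folate receptor gene, ran from 4.76 in MII oocytes to 11.83 in 2-cell and 12.12 in 4-cell controls and 5.15 in the genome-less sample. For Obox5 on version 1 they were Tube1, Vrtn, Whamm, Stk31 and Bbs5 (r = 0.864 to 0.918), and for the Obox5/Obox2 probe on version 2 Tcl1b1, Xlr4c, Srgn, Fbxw4 and Eif4e3 (r = 0.98 to 0.99). Samples of a group share their stage and often their slide, so these values rest on 9 groups. Obox1 and the Obox5 probe correlated at 0.799 on version 1 and 0.974 on version 2, and Obox1 and Obox6 at -0.23 and -0.794. Fibroblasts, low in all 3 probes, are part of the version 1 values.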

How the data were processed

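RNA of pooled embryos or cells was isolated with the PicoPure kit and labelled with biotin by the Illumina TotalPrep kit, per the labels' protocols. The deposited files hold, per the file headers, a mean intensity and a detection p-value for each probe and array, not normalized, and GenomeStudio is named in the submitters' processing notes. Here limma (version 3.58.1, under R 4.3.3) normalized each array version apart: neqc inferred negative controls from the detection p-values, corrected the background by normexp with an offset of 16, made the quantiles equal and took log2. A probe entered the test if 2 or more arrays gave it a detection p below 0.05. Each gene was represented by its brightest probe, giving 8158 genes on version 1 and 7181 on version 2. A model of group means was fitted with lmFit and eBayes (trend) to the 19 samples of version 1 (10 residual degrees of freedom) and the 14 of version 2 (5). Adjusted p-values are Benjamini-Hochberg values over all genes of a version, with a threshold of 0.05, in 20 comparisons.

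On version 1, 3 repeat hybridizations were left out of the fit. All lay on slide 3, and values within slide 3 include those of the groups compared. The labels call most samples biological duplicates and do not name litters or cultures, so the spread behind each p-value is that among the samples at hand and may be technical. A group of 1 sample takes its spread from the other groups. For one 4-cell control the title and the description name different slides, and the description was used. Probe symbols came from the platform annotation: 14898 of 24613 probes of version 1 and 15052 of 25697 of version 2 had 1 symbol, 14890 and 15043 of which were matched by gene ID. A probe not detected on any array of a group gives a bound, "at least N-fold", against the lowest detected signal of those arrays. Precision is limited by the number of arrays. The scripts were tested on simulated data.

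The members and the gene lists were chosen with earlier results of these data known. Genes named are the members, up to 3 called genes with the largest difference per list and comparison, and the 5 genes with the highest correlation with each member. Alternatives changed the background correction, offset, scaling, detection filter, probe rule, slide as a block, the groups in the fit and the samples, and the deposited series matrix was used in place of the unnormalized values. Normalization of version 1 without its dim genome-less and ES NT arrays was added after seeing the data.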

Additional observations from a re-analysis of the deposited data

Results flagged for a closer look

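Anaphase and prometaphase NT embryos, both made with fibroblast nuclei during the first mitosis, differed in the fit for Obox1 (2.87 ± 0.39 higher at anaphase, adjusted p = 6.52e-05) and for Obox6 (-4.92 ± 0.26, adjusted p = 3.78e-08), in 2 of 2 samples each. Blastomere and oocyte NT embryos differed for Obox1 by -1.86 ± 0.45 (limma, adjusted p = 0.03), with all arrays of one below those of the other and no call once any one sample was left out.

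Signal also stood above the MII oocyte level of Obox6 (4.87 and 5.3) in samples used in no comparison. The cleavage-inhibited array of version 2 read 13.4 for Obox6 and the parthenogenetic sample 12.04. The Obox5/Obox2 probe read 11.58 in the ES NT sample of version 2, against 10.88 and 11.1 in MII oocytes.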

How the results depend on the processing

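Of 843 alternative values of the Obox differences, 778 kept their direction and side of the threshold or moved by less than the spread. In 45 a call was lost, in 8 a call was gained, 11 moved by more than the spread and 1 reversed. A change of sign was not counted as reversed where neither value was called. The Obox calls lost or gained, and values that moved, follow as log2 differences, and the cause was not tested. From interphase to M phase, Obox1 was called with no background correction (1.21) and with an offset of 50 (1.21), was 1.9 within slide 4 and ran from 1 to 1.64 with a sample left out. Obox5 there was not called with slide as a block (3.26) or with only both groups in the fit (2.99), and ran from 2.74 to 3.5. From M phase to 2-cell, Obox5 was not called with slide as a block (-1.77). Cleavage-inhibited minus 2-cell, Obox6 was -0.27 within slide 3.

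For anaphase NT minus 2-cell controls, Obox1 was not called with slide as a block (1.66) or with only both groups (1.97), and within slide 3 Obox5 was 1.82 and Obox6 -4.77. Minus M-phase zygotes, Obox5 was not called without a detection filter (-1.64), with slide as a block (-2.14) or with only both groups (-1.64), was -0.53 within slide 3 and ran from -2.62 to -0.67 with a sample left out, and Obox6 was 0.19 within slide 3. Minus prometaphase NT, Obox5 was 2.83 and Obox6 -5.21 within slide 3, and Obox5 ran from 0.67 to 2.62. For fibroblasts minus interphase zygotes, Obox1 was -6.92 and -5.69 within slides 1 and 4, Obox5 was -0.96 with an offset of 50, not called, and -2.81 within slide 1, and Obox6 was called with 75th percentile scaling (-0.93).

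For the genome-less sample of version 1 minus 2-cell controls, Obox1 reversed under 75th percentile scaling (-0.7). It was not called with the series matrix (1.18), with slide as a block (1.1) or with only both groups (1.67), and ran from 1.29 to 2.04. Obox5 was 0.4 under 75th percentile scaling and 0.82 with slide as a block, and Obox6 -1.41 with slide as a block, none called. For ES NT, 75th percentile scaling gave 0.84 for Obox1 and 0.26 for Obox5, the series matrix 2.14 for Obox5, and slide as a block 2.17, 0.39 and -1.87 for Obox1, Obox5 and Obox6, none called, with Obox5 from 2.11 to 2.4 when a sample was left out.

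For oocyte NT minus 4-cell controls, Obox1 was not called with no background correction (0.6), an offset of 50 (1.12), no detection filter (1.56), every probe on its own (1.56) or slide as a block (1.31), and ran from 1.31 to 1.82. The Obox5/Obox2 probe was called with the series matrix (1.5) and with only both groups (0.96). For blastomere minus oocyte NT, Obox1 was not called with no background correction (-0.72), an offset of 50 (-1.29), slide as a block (-1.35) or only both groups (-1.86), and ran from -2.11 to -1.6. The Obox5/Obox2 probe was called with the series matrix (-1.62).

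Counts of called genes moved by over 1.5 times in several comparisons. For M phase minus interphase the count of 222 ran from 0 to 589, where limma with only both groups gave 0. For cleavage-inhibited minus 2-cell the 19 ran from 0 to 118. With all groups in the fit, 1174 and 514 genes had an unadjusted p below 0.05 in these comparisons. For prometaphase NT minus 2-cell the 175 ran from 1 to 210. The 2901 of anaphase NT minus 2-cell ran from 353 to 3571, the 3234 against M phase from 1956 to 3653, and the 3303 against prometaphase NT from 852 to 4109. On version 1 the 4289 of the genome-less sample ran from 1943 to 5515 and the 3957 of ES NT from 1512 to 5119. On version 2, 4-cell minus 2-cell (1372) ran from 339 to 1640, blastomere NT minus 4-cell (202) from 20 to 408 and minus 2-cell (1600) from 741 to 2143. Oocyte NT minus 4-cell (793) ran from 78 to 1474 and blastomere minus oocyte NT (664) from 1 to 1203. Normalization of version 1 without its dim arrays, chosen after seeing the data, changed no Obox call. The deposited series matrix values were linear transforms of the unnormalized values on every array but 1. That array, the repeat hybridization of a cleavage-inhibited RNA on version 1, correlated at 0.996. Column medians were 3.08 to 19.5 on version 1 and 4.39 to 12 on version 2. The scale and centring of the series matrix are not given in the sources used here. Dim signal limits the Obox6 values in zygotes and anaphase NT embryos. No paired analysis was possible because the numbers in the labels differ between groups and do not pair samples.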
